A study of Spinacia oleracea with 6 samples.

Results

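The count table of a heat experiment on spinach (Spinacia oleracea) lists 57 plastid-encoded genes among its 32450 genes. They were taken as every row with a 7-digit gene number in a block that holds plastid genes in RefSeq, and all 57 matched a plastid entry of the RefSeq gene table of the BTI_SOV_V1 assembly. By its classes they are 8 rRNA genes, 36 tRNA genes and 13 protein-coding entries. The RefSeq table holds 144 plastid entries. The other 87, 83 of them protein-coding and including rbcL and psbA, had no row under their gene number among the counts and were not analysed here. Sums and shares over the 57 genes therefore do not stand for all plastid RNA. RNA sequencing libraries were made from total RNA of plants kept in an illumination incubator. The heat group grew for 4 days under 35 °C days and 25 °C nights, and the control group for 4 days under 20 °C days and 15 °C nights, with 3 libraries each. The labels name neither the tissue nor the age of the plants, nor whether a group's libraries are separate plants. The p-values therefore measure only the spread between these libraries, which may be technical.

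The plastid genome of land plants encodes part of the photosynthetic machinery, part of the plastid's own ribosome with its rRNAs and tRNAs, and subunits of a bacterial-type RNA polymerase. Most other plastid proteins are encoded in the nucleus, so complexes such as the ATP synthase, the cytochrome b6f complex and the ribosome are assembled from the products of both genomes. The rRNA genes lie in an inverted repeat, so that each is present in a pair of near-identical copies, and many plastid transcripts carry no long stable poly(A) tail. The labels do not say whether the libraries were selected for poly(A) RNA or depleted of rRNA.

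Reads of the 57 genes made up a very small share of each library. They numbered 1541, 679 and 1590 in heat libraries 1 to 3 and 1008, 1053 and 1773 in control libraries 1 to 3, where heat libraries held 42.3 to 48.0 M counts in all and control libraries 48.4 to 56.8 M. Over the 6 libraries this was 0.00261% of the counts. The sum was 28.4 ± 11.5 RPM (reads per M counts of the library) in heat and 24.7 ± 10.4 RPM in control (mean ± SD, n = 3 each). Heat library 2 (15.4 RPM) lay below every control library, and heat library 3 (37.6) and control library 3 (36.6) were the highest, so the groups overlapped and the spread within each group exceeded the difference between the means. The difference of the mean log2 sums was 0.18, heat minus control, and between -0.07 and 0.57 with 1 library left out. It was 0.89 without heat library 2 and control library 3, a choice made after the data were seen. That choice removes the lowest heat sum and the highest control sum, so the difference had to rise. Scaled by TMM, edgeR's normalization on the bulk of genes, the difference over all 6 libraries was -0.28. In bulk RNA, any change in the share of plastid-rich cells and any change in plastid RNA per cell cannot be told apart.

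rRNA supplied most of these reads. The rRNA genes took 90.3%, 80.3% and 91.4% of the plastid-encoded reads in heat libraries 1 to 3, and 85.8%, 89.6% and 82.7% in control libraries 1 to 3. Protein-coding genes took 6.29%, 16.8% and 6.42% in heat and 10.5%, 8.26% and 15.7% in control. The share of protein-coding reads was thus highest in heat library 2 and control library 3, 1 library of each group, as the plot of reads by class shows. In heat library 2 the rRNA reads were low, at 12.4 RPM against 29 and 34.4 in heat libraries 1 and 3. In control library 3 the protein-coding reads were high, at 5.75 RPM against 1.98 and 1.53 in control libraries 1 and 2. The 36 tRNA genes together held between 1.64% and 3.67% in any library.

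**Figure D1:**
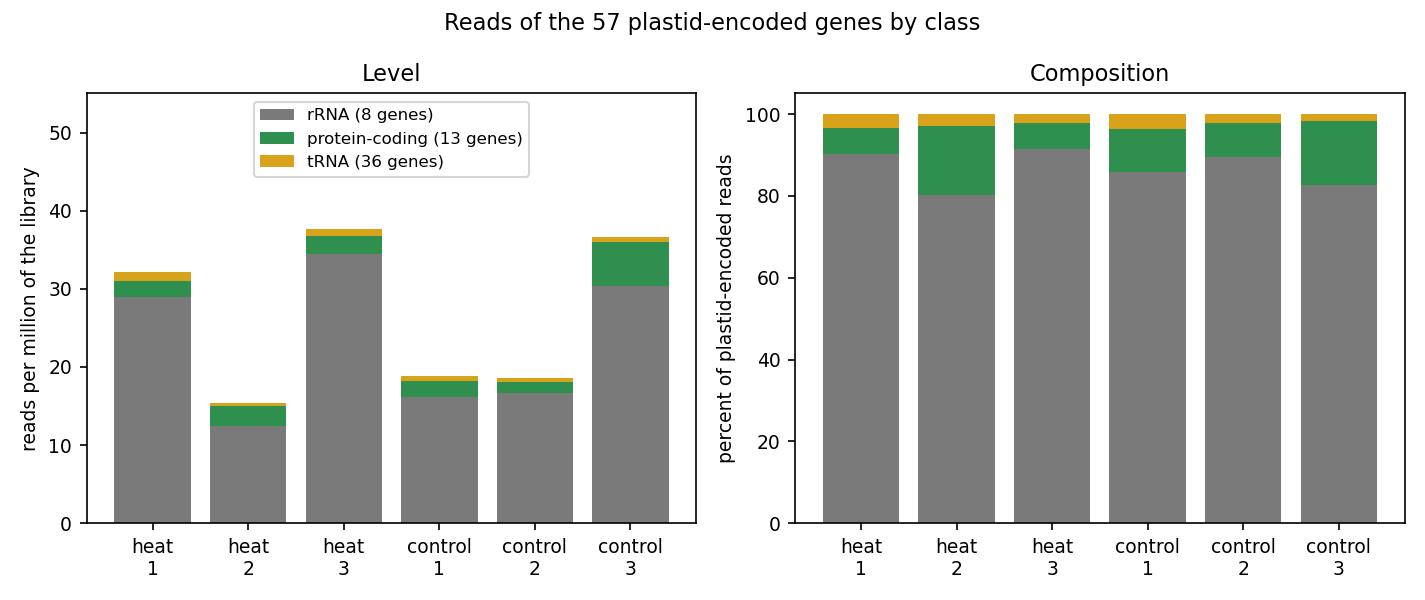
Reads of the 57 plastid-encoded genes in each library, by class, as RPM (left) and as a percent of the plastid-encoded reads (right). The sum lies between 15.4 and 37.6 RPM in heat and between 18.5 and 36.6 in control, and rRNA takes 80.3% or more of it in every library.

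Of the 57 genes, 33 had at least 1 read and 24 had none in any library. A count of 0 allows up to 3 reads, or between 0.0528 and 0.0709 RPM depending on the library. This limit covers counting error only. The 24 genes at 0 were 19 tRNA genes, 3 short rRNA genes, rps16, which encodes a protein of the small ribosomal subunit, and 1 of the ndhB entries. tRNA-Glu (UUC), the tRNA that also starts chlorophyll synthesis, was among them. Only 8 genes passed edgeR's filter on low counts, which asked for at least 0.207 counts per M in 3 libraries, and these 8 held 97.7% of the plastid-encoded reads. Of the 8, 3 (atpF, clpP and tRNA-Gly(UUC)) did not reach that level in every library of the group where they were lower. They therefore passed through the group where they were higher.

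None (0) of the 8 was called by edgeR's quasi-likelihood test at an adjusted p below 0.05. In the same test 25.2% of all 20145 genes passed, 11.6% higher and 13.6% lower in heat. Among the 8, only atpF had an unadjusted p below 0.05, against 39.1% of all genes tested. DESeq2 called 0 of 11 genes to which it gave an adjusted p, limma-voom 0 of 8, and edgeR without the filter 0 of 33 (0 of them with an unadjusted p below 0.05). With DESeq2 and with limma-voom, atpF alone again had an unadjusted p below 0.05. The 95% intervals were wide, and each of the 8 had a larger spread between replicates than the median gene. The pooled SD within groups of log2 CPM (counts per M after TMM scaling) was between 0.42 and 1.22 for the 8. Its median over all genes tested was 0.33. Of all genes tested, 5.73% had a spread at least that of SpolCr106, the largest, and 38.2% at least that of tRNA-Gly(UUC), the smallest. Genes of similar count were not compared. The intervals treat each gene alone and are not adjusted for the 20145 genes tested. The size of change that could be detected at this depth and spread was not computed.

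The long rRNA genes were the most abundant members. SpolCr107 (2715566), annotated as rRNA with a length of 2810 bases recovered from the FPKM values, had 901, 256 and 837 reads in heat libraries 1 to 3 and 584, 557 and 614 in control libraries 1 to 3. Heat library 2 was below all control libraries, and the other heat libraries, at 16.2 and 15.8 CPM, lay above control libraries 1 and 2 and next to control library 3 (16.3 CPM). Its log2 fold change was -0.09 (95% interval -1.07 to 0.90; edgeR adjusted p = 0.897), and without heat library 2 it was 0.28. Its near-identical copy SpolCr112 (2715571) had 190, 31 and 265 reads in heat and 92, 227 and 99 in control, with a log2 fold change of -0.01 (interval -1.68 to 1.65; edgeR adjusted p = 0.991). Under library size alone the fold changes of both were above 0, at 0.41 and 0.49.

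The shorter pair of long rRNA genes, each of 1491 bases, stood apart in control library 3. SpolCr106 (2715565) had 151, 219 and 247 reads in heat and 121, 94 and 616 in control. All heat libraries were above control libraries 1 and 2 and below control library 3. The log2 fold change was -0.81 (interval -2.70 to 1.09; edgeR adjusted p = 0.501) and turned to 0.84 without control library 3 (edgeR adjusted p = 0.164). Its copy SpolCr113 (2715572) had 150, 39 and 105 reads in heat and 68, 65 and 136 in control, with a log2 fold change of -0.20 (edgeR adjusted p = 0.832), which was 0.43 without control library 3. With the copies of each pair added together before the fit, an alternative chosen after the data were seen, the log2 fold changes were -0.64 for SpolCr106 with SpolCr113 (edgeR adjusted p = 0.527) and -0.07 for SpolCr107 with SpolCr112 (edgeR adjusted p = 0.920).

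The division of reads between near-identical copies differed between libraries by more than counting error. SpolCr106 took 50.2%, 84.9% and 70.2% of its pair's reads in heat libraries 1 to 3, and 64.0%, 59.1% and 81.9% in control libraries 1 to 3. The Wilson 95% intervals of heat library 1 (44.6% to 55.8%) and heat library 2 (80.0% to 88.7%) did not overlap. For SpolCr107 the shares were 82.6%, 89.2% and 76.0% in heat and 86.4%, 71.0% and 86.1% in control. The sources used here do not say how reads that match both copies were counted, so the level of a single copy is uncertain, and its part in these differences was not tested. The pairs also differed in ratio. Per base, SpolCr106 with SpolCr113 had 0.520, 1.69 and 0.602 times the reads of SpolCr107 with SpolCr112 in heat, and 0.527, 0.382 and 1.99 times in control. Heat library 2 and control library 3 were above 1, with the other 4 libraries between 0.382 and 0.602. They differed in which pair departed from its group. In heat library 2 the SpolCr107 pair was low, at 287 reads against 1091 and 1102 in heat libraries 1 and 3. In control library 3 the SpolCr106 pair was high, at 752 reads against 189 and 159 in control libraries 1 and 2.

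**Figure D2:**
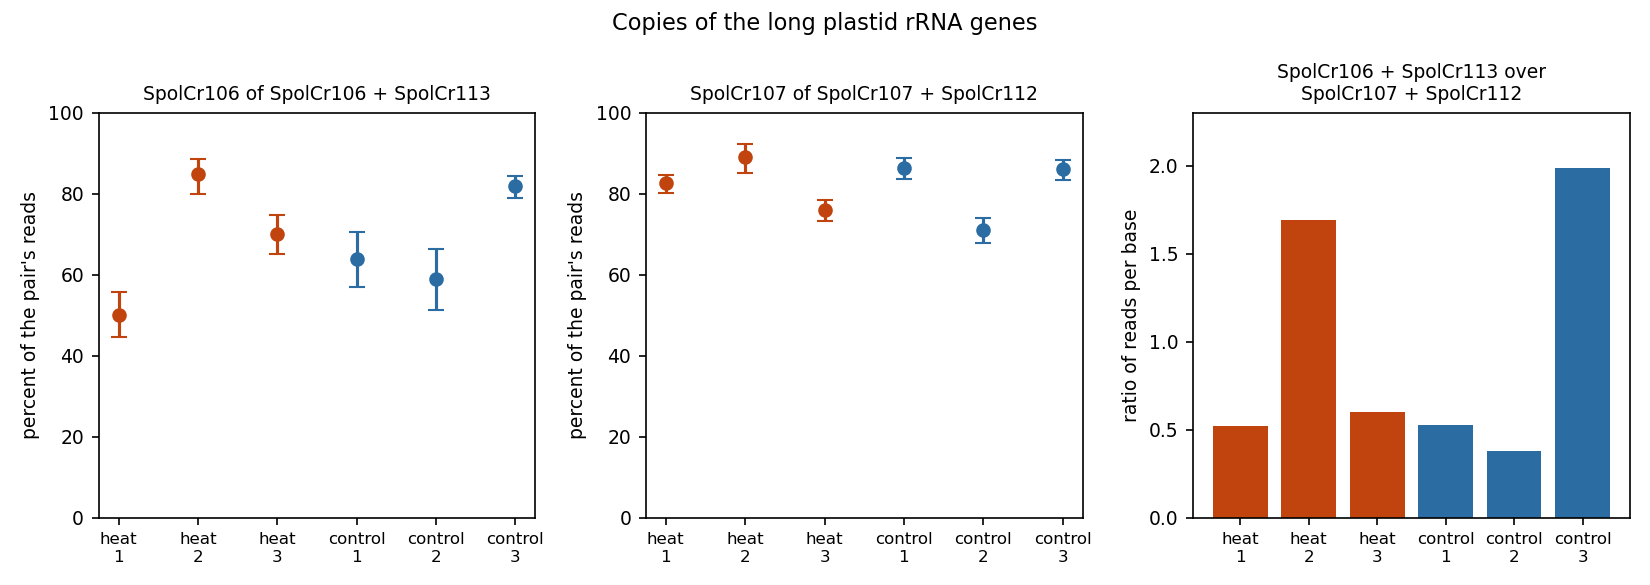
Left and middle, the share of each rRNA pair's reads assigned to SpolCr106 and to SpolCr107 in each library, with Wilson 95% intervals; right, the ratio of reads per base of the SpolCr106 pair to the SpolCr107 pair. In heat library 2 and control library 3 SpolCr106 takes over 80% of its pair and the ratio is 1.69 and 1.99.

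The short rRNA genes had almost no reads. The only read assigned to them was 1 of SpolCr108 in control library 3. How well these libraries capture such short RNA was not tested, so the counts do not give its level in the plant.

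Among protein-coding genes, petB (2715598), which encodes cytochrome b6 of the complex that links the photosystems, had the most reads. It had 59, 70 and 75 reads in heat and 74, 54 and 214 in control. Control library 3 was the highest, and the other control libraries lay within or next to the heat range. The level was 1.30 ± 0.206 CPM in heat and 2.76 ± 2.54 CPM in control (SD, n = 3 each), and the log2 fold change of -1.08 (SE 0.65, interval -2.61 to 0.44) did not pass (edgeR adjusted p = 0.260). Without control library 3 it was -0.01. petD (2715599), for subunit IV of the same complex and the next gene after petB on the plastid chromosome, had 0, 1 and 3 reads in heat and 3, 0 and 4 in control. Per length, petB averaged 2.92 FPKM over the 6 libraries and its neighbour petD 0.0802 FPKM.

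atpF (2715578), for subunit I of the membrane part of the chloroplast ATP synthase, was the lowest of the 8 in heat relative to control. It had 15, 5 and 3 reads in heat and 22, 16 and 27 in control. By reads and by CPM all heat libraries were below all control libraries, but not when scaled by library total alone, where heat library 1 (0.563 FPKM) lay above control library 2 (0.508 FPKM). The level was 0.143 ± 0.113 CPM in heat and 0.497 ± 0.200 CPM in control, with a log2 fold change of -1.77 (SE 0.73, interval -3.49 to -0.05). The unadjusted p was 0.0453 and the adjusted p 0.119 (edgeR), against 0.110 and 0.186 under library size alone, and over all alternatives the adjusted p lay between 0.0908 and 0.400. Relative to rRNA within the same library, atpF had 10.8, 9.17 and 2.06 reads per 1000 rRNA reads in heat and 25.4, 17.0 and 18.4 in control. These values rest on the same few atpF reads, and overlap over all genes was not computed on this scale.

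tRNA-Gly(UUC) (2715662), annotated as a tRNA for glycine, went the other way. Its symbol is kept as annotated, although tRNA-Glu (UUC) carries the same anticodon label for another amino acid, so the label is uncertain. tRNA-Gly(UUC) had 37, 14 and 29 reads in heat and 12, 10 and 8 in control, so every heat library was above every control library. It took 80 of the 106 tRNA reads in heat and 30 of 89 in control. The log2 fold change was 1.17 (SE 0.55, interval -0.11 to 2.46; edgeR adjusted p = 0.159). limma on log2(FPKM + 1) called it higher (log2 fold change 1.05, adjusted p = 0.0218), and FPKM are not TMM-scaled. The median log2 fold change over all genes tested was 0.34 in that fit and 0.01 under TMM. Per 1000 rRNA reads of the same library tRNA-Gly(UUC) had 26.6, 25.7 and 19.9 reads in heat and 13.9, 10.6 and 5.46 in control. These values rest on the same tRNA-Gly(UUC) reads, and overlap over all genes was not computed on this scale. atpF and tRNA-Gly(UUC) were the only 2 of the 8 whose groups did not overlap in CPM, where 45.2% of all genes tested did not overlap, 22.3% lower in heat as atpF and 22.9% higher as tRNA-Gly(UUC). On the FPKM scale only 1 of the 8, tRNA-Gly(UUC), had groups that did not overlap, where 53.5% of all genes tested did not.

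clpP (2715582), for the proteolytic subunit of the plastid Clp protease, had 11, 15 and 16 reads in heat and 1, 8 and 12 in control. Control library 3 (0.319 CPM) lay above all heat libraries (0.198 to 0.306 CPM), so the groups overlapped, and the log2 fold change was 0.70 (interval -1.33 to 2.73; edgeR adjusted p = 0.589). Without control library 1, which had 1 read, it was 0.17.

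**Figure D3:**
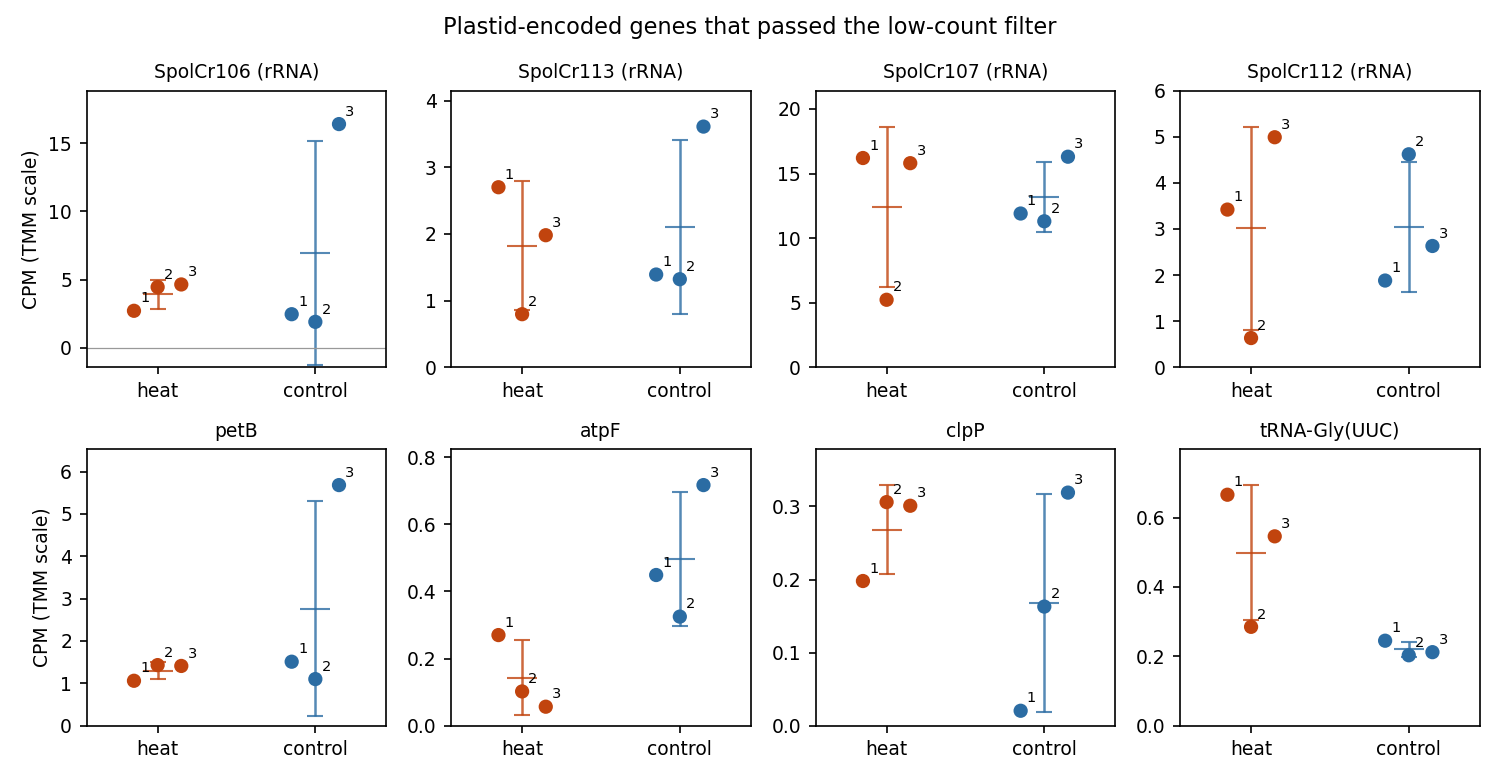
Levels of the 8 plastid-encoded genes that passed the low-count filter, in CPM on the TMM scale, with 1 point per library (numbered by replicate) and the mean ± SD of each group (n = 3). Control library 3 is the highest of the control libraries in 6 of the 8 panels, heat library 2 is the lowest of the heat libraries in 4, and on this scale only atpF and tRNA-Gly(UUC) show no overlap between the groups.

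The other 25 genes with reads did not pass the filter and had at most 19 reads in a heat library and 8 in a control library. rps12 (2715636), for a protein of the small ribosomal subunit, had 5, 19 and 4 reads in heat and 1, 4 and 3 in control, and heat library 2 alone held most of its heat reads. The second rps12 entry (2715700), which shares its symbol, had 1 read in all, in heat library 2. rpl16 (2715623), for a protein of the large subunit, had 3, 3 and 0 reads in heat and 2, 0 and 3 in control. rpoC1 (2715633), for a subunit of the plastid-encoded RNA polymerase, had 4, 0 and 1 reads in heat and none in control.

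The table listed 3 entries for subunits of the NADH dehydrogenase-like complex, which carries electrons around photosystem I. ndhA (2715584) had 0 reads in every heat library and 2, 0 and 8 in control, and ndhB (2715585) had 0 in every heat library and 1, 1 and 2 in control. The other ndhB entry (2715586), at its near-identical copy, was at 0 throughout. ycf3 (2715690), for an assembly factor of photosystem I, had 0 reads in every heat library and 0, 4 and 5 in control. A group total of 0 in heat allows up to 3 reads, or 0.0223 RPM. In the fit without a filter, ycf3 had an unadjusted p of 0.0571, ndhA 0.0617 and ndhB 0.0716 (edgeR), with adjusted p of 0.164, 0.173 and 0.190. Of the 25 plastid-encoded genes with reads below the filter, 8 had reads in control only and 4 in heat only. Among all 4744 genes with reads below the filter, 16.7% had reads in control only and 21.7% in heat only. These counts rest on 1 to 10 reads a gene, and the heat libraries together held 134 M counts, against 159 M in control.

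Of the tRNA genes below the filter, tRNA-Ser (GCU) (2715676), the neighbour of tRNA-Gly(UUC), had the most reads. It had 3, 0 and 0 in heat and 7, 4 and 4 in control, and was not called (unadjusted p = 0.111 and adjusted p = 0.252, edgeR without a filter). tRNA-Phe (GAA) (2715674) had 4, 1 and 0 reads in heat and 6, 1 and 3 in control. tRNA-Val (UAC) (2715684) had 2, 2 and 0 in heat and 4, 0 and 3 in control, and the groups overlapped for both.

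All 11 protein-coding entries with reads had a length that is a multiple of 3, so that reads were related to coding length and not to untranslated regions. Per length, the order of the 8 tested genes differed between the groups. In heat SpolCr107 (5.26 FPKM) led, followed by tRNA-Gly(UUC) (3.65 FPKM), SpolCr106 (3.12 FPKM), petB (2.36 FPKM), SpolCr113 (1.45 FPKM), SpolCr112 (1.30 FPKM), clpP (0.535 FPKM) and atpF (0.298 FPKM). In control SpolCr107 (3.96 FPKM) led, followed by SpolCr106 (3.72 FPKM), petB (3.48 FPKM), SpolCr113 (1.17 FPKM), tRNA-Gly(UUC) (1.16 FPKM), SpolCr112 (0.920 FPKM), atpF (0.751 FPKM) and clpP (0.230 FPKM). SDs were large in places, for example 4.18 FPKM in control for SpolCr106, and the order was not tested. The value of tRNA-Gly(UUC) rests on a length of only 162 bases.

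Nuclear genes for partners of these products were listed by name, and all those matched were tested. Genes without a matching symbol or synonym were missed, so the lists need not hold all nuclear subunits. The 3 matched for the chloroplast ATP synthase and cytochrome b6f complex all fell in heat (13.6% of all genes tested fell). Their median log2 fold change was -1.58 (0.01 over all genes tested). AtpC, the gamma subunit, had 299 ± 27.8 FPKM in heat and 644 ± 33.0 FPKM in control (SD, n = 3 each). In these libraries this was far above the FPKM of all 57 plastid-encoded genes listed. RNA selection is not stated and may capture nuclear and plastid RNA unequally, so levels in the plant cannot be compared from these values. The log2 fold change of AtpC was -1.58 (SE 0.16, edgeR adjusted p = 0.00109). That of ATPG, for subunit II of the membrane part, was -2.30 (SE 0.26, edgeR adjusted p = 0.00161). That of petC, for the Rieske iron-sulfur protein, was -1.30 (SE 0.20, edgeR adjusted p = 0.00539). Of 21 nuclear genes with names of plastid ribosomal proteins, 7 fell, 14 did not pass and 0 rose, where 13.6% of all genes tested fell and 11.6% rose, with a median of -0.45. Under library size alone 3 fell and the median was 0.01, beside 0.47 over all genes tested, and 4 fell without control library 2 and 4 without heat library 1. PSRP1, with the most reads, had a log2 fold change of 0.01 (edgeR adjusted p = 0.984) and PRPL23, with the fewest, -0.06 (edgeR adjusted p = 0.880). 28RNP, an RNA-binding protein that acts in the processing of chloroplast mRNA ends, was the only gene matched for plastid transcription, RNA processing or protease, and fell (log2 fold change -1.24, edgeR adjusted p = 0.00317). The 8 plastid-encoded genes tested had a median log2 fold change of -0.15 (range -1.77 to 1.17).

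Plastid-encoded and nuclear subunits of each complex were also compared within each library. The values are ratios of FPKM, not of RNA in the plant, as the selection of RNA is not stated. The FPKM of atpF was 0.194%, 0.0741% and 0.0387% of that of AtpC in heat libraries 1 to 3, and 0.115%, 0.0751% and 0.165% in control libraries 1 to 3. Relative to ATPG it was 0.382%, 0.104% and 0.106% in heat and 0.144%, 0.0838% and 0.183% in control. petB stood at 0.323%, 0.358% and 0.490% of petC in heat and 0.210%, 0.127% and 0.621% in control. The groups overlapped in each of the 3 ratios, which were chosen after the data were seen. Their log2 ratios differed by -0.45, 0.32 and 0.59, heat minus control, with exact two-sided permutation p of 0.6, 0.8 and 0.5 and an adjusted p of 0.8 for each, where 3 libraries against 3 cannot give a p below 0.1. Without control library 3 the difference for petB to petC was 1.23, and without heat library 1 that for atpF to AtpC was -1.07.

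**Figure D4:**
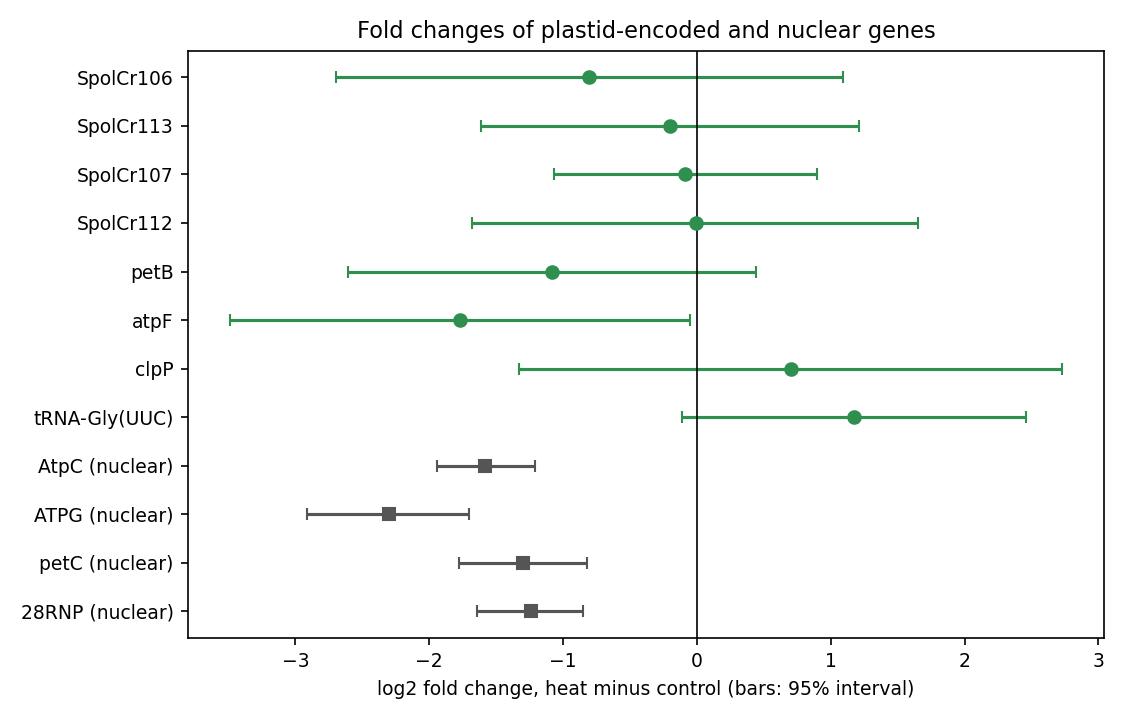
Log2 fold changes, heat minus control, of the 8 tested plastid-encoded genes (circles) and 4 nuclear genes (squares), with 95% intervals. The intervals of 7 plastid-encoded genes cover 0 and that of atpF ends at -0.05, while AtpC, ATPG, petC and 28RNP lie below 0 with narrow intervals.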

How the data were processed

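The authors deposited whole-number read counts per gene without normalization, and FPKM values that equalled count over gene length and library total for all 114 nonzero values of these genes (relative tolerance 1e-06), which gave the lengths. Per the submitters' processing notes the tools were DESeq 1.18.0, HISAT2 2.0.4 and HTSeq 0.9.1, with no role named. Not given in the sources used here are the genome build, the use of strand and the treatment of reads that match several places. Symbols came from RefSeq (BTI_SOV_V1) by gene number.

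Counts of all genes were tested with edgeR 4.0.16 (R 4.3.3; quasi-likelihood test, TMM, filterByExpr with a minimum count of 10, group as only term, two-sided, Benjamini-Hochberg over 20145 genes, threshold 0.05), after the script was tested on simulated data. SE is the fold change over the square root of F. Alternatives used DESeq2 1.42.0 and limma 3.58.1 (limma-voom, and limma on log2 FPKM with pseudocounts of 1 and 0.1). 1 read was 0.0176 to 0.0236 CPM of a library. Wilson intervals cover counting error only. No pair of replicates differed by less than sampling noise. All plastid-encoded genes were described, and nuclear lists were matched by name. The sum over members is described without the permutation test first planned for it, since members and lists were chosen with earlier results of these data known. No mitochondrial genes were among the rows. The file of added gene models was not used.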

Additional observations from a re-analysis of the deposited data

How the results depend on the processing

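Under the alternatives run, 0 of the 8 tested genes was called, except tRNA-Gly(UUC) on log2(FPKM + 1) and log2(FPKM + 0.1) (log2 fold change 1.05 and 1.49, adjusted p = 0.0218 and 0.0204, limma). atpF and petB stayed below 0 and clpP and tRNA-Gly(UUC) above 0 in every alternative. The rRNA genes did not keep a direction. SpolCr107, SpolCr112 and SpolCr113 were at 0.41, 0.49 and 0.31 under library size alone. SpolCr106, SpolCr107, SpolCr112 and SpolCr113 were at 0.13, 0.22, 0.18 and 0.16 on log2(FPKM + 1), at 0.28, 0.22, 0.15 and 0.24 on log2(FPKM + 0.1), and at 0.76, 0.47, 0.38 and 0.79 without control library 3 and heat library 2 together, chosen after the data were seen. The cause was not tested.

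Leaving out 1 library at a time gave ranges of -1.24 to 0.84 for SpolCr106, -0.33 to 0.28 for SpolCr107, -0.58 to 0.47 for SpolCr112, -0.60 to 0.43 for SpolCr113, -1.45 to -0.01 for petB, -2.61 to -1.39 for atpF, 0.17 to 1.52 for clpP and 0.91 to 1.45 for tRNA-Gly(UUC), with 0 calls. The log2 ratios ranged from -1.07 to 0.09 for atpF to AtpC, -0.30 to 0.63 for atpF to ATPG and 0.09 to 1.23 for petB to petC. The difference of the log2 sums ranged from -0.07 to 0.57, and was -0.28 under TMM. Without control library 3 and heat library 2 together, chosen after the data were seen, it was 0.89.

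Over all genes, 5074 were called (46.1% higher). Library size alone gave 7759 (81.0% higher), log2(FPKM + 1) 8012, log2(FPKM + 0.1) 8119, and leaving out 1 library 2291 (without control library 2) to 4355. Same-numbered libraries did not deviate together (r = -0.13, -0.12 and -0.29 over genes). Between libraries of unlike number r ran from -0.18 (heat library 2, control library 1) to 0.28 (heat library 3, control library 1). With so few libraries these values cannot exclude a pairing or a batch, and the labels state none. The fit with a replicate block called 2628 genes and 0 of the 8.

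Depth limits these results: 49 of the 57 genes did not pass the filter on low counts, 24 of them without a read, and atpF, clpP and tRNA-Gly(UUC) rest on 88, 63 and 110 reads in all.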
